A study of Mus musculus with 2 samples.

Results

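E-cadherin (Cdh1), the epithelial cell adhesion molecule EpCAM (Epcam) and 3 receptor genes whose products meet E-cadherin on lymphocytes (Itgae, Itgb7 and Klrg1) were followed through 2 mouse single-cell RNA libraries with colon as the tissue label. The 5 genes were chosen by symbol, with earlier results of these data known, and all 5 were found among the 55357 features of both libraries. The first library is labelled KO with the genotype RUNX3 ko, and the second is labelled WT with the genotype RUNX3 wt. Tumour models were set up in the mice, per the design text, and the study asked how Runx3 bears on NK cells in colorectal cancer. Strain, sex, age, kind of tumour, treatment, number of pooled animals and the deleted stretch of Runx3 are stated in none of the sources used here.

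E-cadherin is a calcium-dependent adhesion molecule that holds neighbouring epithelial cells together through binding to itself, and catenins link its tail to the actin skeleton. EpCAM is a second surface protein of epithelia, best known from the gut lining. Both proteins are also known from some cells of the blood lineage, Langerhans cells of the skin being the usual example. Itgae encodes the integrin chain alphaE (CD103), which pairs only with beta7, the product of Itgb7, and the pair binds E-cadherin and holds lymphocytes and some dendritic cells in epithelia. Beta7 also pairs with alpha4, and that pair binds MAdCAM-1 on gut vessels. KLRG1 is an inhibitory receptor of natural killer (NK) cells and T cells that binds E-cadherin and other classical cadherins. RUNX3 is a transcription factor known to promote Itgae in CD8 T cells.

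The genes lie on 5 chromosomes of mm10, all as protein-coding genes in GENCODE M21. Cdh1 spans chr8:106603351-106670246 and Epcam chr17:87635979-87651129, both on the plus strand. Itgae spans chr11:73090583-73147446 on the plus strand, Itgb7 chr15:102215995-102231944 on the minus strand and Klrg1 chr6:122270596-122282882 on the minus strand. Within Itgae lies Haspin on the opposite strand, with 161 UMIs in the library labelled KO and 214 in WT. No other annotated gene overlaps a member.

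The 250 bases before the transcription start were found in RefSeq for 2 of the 5 genes, Epcam and Itgb7, with the start and coordinates of GRCm38.p6. They are shown because Epcam was held by few leukocytes and Itgb7 was the gene with the most uniform difference between the libraries. Both are written 5′ to 3′ on the gene's own strand, at chr17:87635729-87635978 for Epcam and chr15:102231936-102232185 for Itgb7. Capitals mark matches to CAGGTG, an E-box core known for the repressors of Cdh1, searched on both strands.
Epcam: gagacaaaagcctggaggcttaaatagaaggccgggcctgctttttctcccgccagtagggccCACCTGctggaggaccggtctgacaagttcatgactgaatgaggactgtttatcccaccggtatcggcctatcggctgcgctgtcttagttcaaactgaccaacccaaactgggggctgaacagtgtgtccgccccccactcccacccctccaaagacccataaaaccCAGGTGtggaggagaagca
Itgb7: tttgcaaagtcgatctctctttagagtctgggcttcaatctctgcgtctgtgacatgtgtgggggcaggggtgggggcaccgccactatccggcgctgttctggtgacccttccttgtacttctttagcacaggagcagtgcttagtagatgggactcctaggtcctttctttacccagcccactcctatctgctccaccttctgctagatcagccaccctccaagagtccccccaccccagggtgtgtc
The Epcam window held 2 matches, starting 187 and 19 bases before the start, and 2.06% of 32851 promoter windows of this length held at least 2. The Itgb7 window held none, and 17.2% of windows held at least 1. The letters TGTGGT or TGCGGT, the core that RUNX factors are known to bind, occurred in neither window on either strand, and in 18.6% of all windows.

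The library labelled KO held 6573 cell barcodes and 62465176 UMIs (molecules counted by their tags), and 5237 cells with a median of 9404 UMIs were kept. The library labelled WT held 8800 barcodes and 85367638 UMIs, and 8360 cells with a median of 8291 UMIs were kept. Runx3 stood at 192 UMIs per 1000000 (CPM) in the library labelled KO (interval 189 to 196) and at 255 CPM in WT (interval 252 to 259), which settles nothing about the label, since the deleted part is not given. The libraries shared 17 barcode sequences. By UMIs of Xist and of 4 Y-linked genes, 54.6% of the cells of the library labelled KO were female-type, 24.0% male-type and 8.34% both-type, while WT was 79.5% male-type and 0.0120% female-type, so the library labelled KO holds cells of both types and WT almost no female-type cells. Each group is 1 library, so no test was possible; all intervals are 95% intervals that cover counting error only.

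Despite the tissue label, the E-cadherin and EpCAM transcripts did not lie in cells with an epithelial profile. No cell of either library carried 3 of 12 epithelial markers, and Krt20, Cldn3, Cldn4 and Cdx2 had 0 UMIs in both. Krt8 had 0 UMIs in the library labelled KO and 2 in WT. The most found of the 12 were Lgals4, with 55 UMIs labelled KO and 73 in WT, and Vil1, with 32 labelled KO and 55 in WT. Cdh1 was found in 1032 cells labelled KO and 1306 cells of WT, of which 97.4% and 98.2% carried no epithelial marker and none carried more than 1. Of the cells without Cdh1, 98.2% in each library carried no epithelial marker, so this share does not set the Cdh1 cells apart. Epcam was found in 127 cells labelled KO and 253 of WT, again with at most 1 epithelial marker a cell. The cells were clustered without the 5 members into 30 clusters, of which 27 were named from marker genes as X-like and 26 held at least 20 cells in each library.

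Among the 26 clusters with at least 20 cells in each library, Cdh1 was highest in cDC2-like cells, conventional dendritic cells marked here by Cd209a (69.2% of cells) and Zbtb46 (49.1%). It stood at 109.7 CPM in the library labelled KO and 114 CPM in WT, and 49.4% of 176 cells labelled KO and 47.6% of 233 WT cells carried a UMI. With both libraries summed, the NK-like cluster came next at 91.2 CPM (interval 81.3 to 102), below the cDC2-like 112 CPM (102 to 123). Plasmacytoid dendritic-like cells followed at 68.5 CPM (48.9 to 93.3), within counting error of both neighbours in the order. A macrophage or monocyte-like cluster led by Ear2, Ccl17 and Mgl2 (cluster 8) came after them at 59.6 CPM (54.6 to 65.0), below the NK-like cells. The cycling macrophages (cluster 0, led by Pclaf and Top2a) and an unnamed cluster led by Arg1 (cluster 6) stood at 39.6 and 38.7 CPM. E-cadherin transcripts were spread over several leukocyte types. Macrophage or monocyte-like clusters, which hold the most cells, gave 46.4% of all Cdh1 UMIs labelled KO and 49.1% in WT. The unnamed cluster 6 is not among them. It held 806 Cdh1 UMIs over both libraries, and 24.5% of all Cdh1 UMIs labelled KO. Its best match was the macrophage or monocyte list, with 11 markers found, but its leading genes held more markers of another class.

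The cDC1-like and mature dendritic-like cells carried little Cdh1. In cDC1-like cells, the cross-presenting subset marked by Xcr1 (86.7% of cells) and Clec9a (86.7%), Cdh1 had 3 UMIs in 42 cells labelled KO and 8 UMIs in 93 WT cells. That is 4.64 CPM in the library labelled KO and 5.85 CPM in WT. In the mature CCR7 dendritic-like cells, which have switched to the migratory program, it stood at 10.4 CPM labelled KO and 9.68 CPM in WT. Fibroblast-like cells (cluster 15), taken as a non-immune background, had 4.29 CPM labelled KO and 3.05 CPM in WT. They carried Col3a1 in 97.7% and Col1a2 in 92.4% of cells, but Col1a1 in 35.8% and Lum in 3.05%. Hmga2 and Sox9 were among their leading genes, so whether they are fibroblasts or other non-immune cells was not settled. With both libraries summed, the interval of the cDC1-like cells (2.73 to 9.77 CPM) overlapped that of the fibroblast-like cells (2.46 to 5.27 CPM), and that of the mature cells (6.50 to 14.6 CPM) lay above it.

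**Figure D1:**
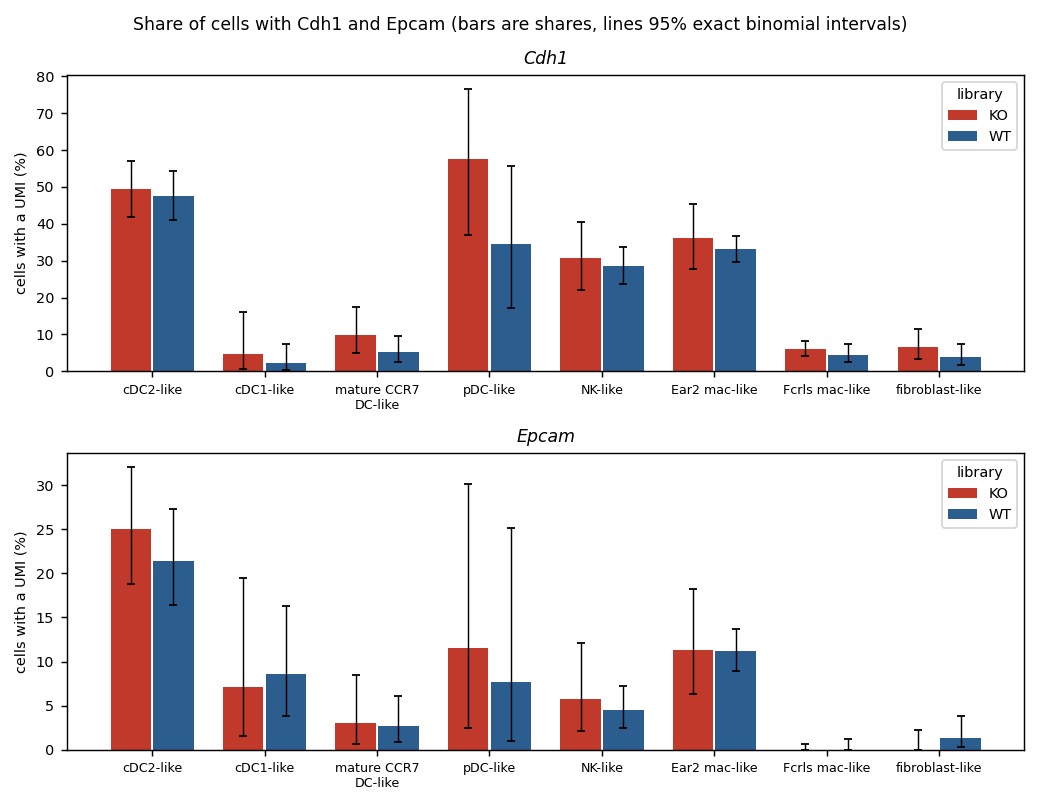
Share of cells with at least 1 UMI of Cdh1 (top) and Epcam (bottom) in percent, in 4 dendritic-like clusters, the NK-like cluster, 2 macrophage-like clusters and the fibroblast-like cluster, with KO left and WT right in each pair; lines are 95% exact binomial intervals. The cDC2-like cells stand at 49.4% labelled KO and 47.6% in WT for Cdh1 and at 25% labelled KO and 21.5% in WT for Epcam, with the cDC1-like and mature cells far lower for Cdh1 and the few plasmacytoid cells at 57.7% labelled KO and 34.6% in WT.

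A share of cells with a UMI depends on depth and on free RNA. Fibroblast-like cells carried a Cdh1 UMI in 6.67% of cells labelled KO and 3.93% of WT cells at median depths of 20715 and 15024 UMIs, deeper than the cDC2-like cells (10023 labelled KO and 8049 in WT). After thinning every cell to 1000 UMIs, 12.6% of cDC2-like cells labelled KO and 7.93% of those in WT kept a Cdh1 UMI, beside 9.62% of NK-like cells labelled KO and 7.51% of those in WT. The cDC1-like cells kept none in 42 cells labelled KO, which allows up to 7.14%, and none in 92 WT cells, which allows up to 3.26%. Fibroblast-like cells kept 1.82% labelled KO and 0.437% in WT.

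By level, Epcam was highest in the same cDC2-like cells. It stood at 41.9 CPM in cDC2-like cells labelled KO and 50.9 CPM in those of WT, found in 25% and 21.5% of cells, and with both libraries summed (46.6 CPM) it lay above every other cluster beyond counting error. The Ear2 cluster came next, at 17.1 CPM labelled KO and 21.4 CPM in WT, found in 11.3% of its cells labelled KO and 11.2% in WT. The cDC1-like cells had 9.28 CPM labelled KO and 12.4 CPM in WT from 6 and 17 UMIs, within counting error of their B-like and plasmacytoid neighbours in the order. A macrophage or monocyte-like cluster led by Fcrls and Folr2 (cluster 5) had no Epcam UMI in 591 cells labelled KO or 308 WT cells, which allows up to 0.535 CPM labelled KO and 1.09 CPM in WT. After thinning, libraries summed, 2.74% of cDC2-like cells (interval 1.38 to 4.86) and 1.80% of the Ear2 cluster (1.01 to 2.96) kept an Epcam UMI. Cells gated by Cd209a with Flt3 or Zbtb46 kept it in 0.957% (0.116 to 3.41), those of a cDC1 gate in 1.67% (0.768 to 3.15). These intervals overlap, so the gate of cDC2 cells did not repeat the peak after thinning.

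Cdh1 and Epcam were found in the same cells more often than separately drawn detections would give. In the cDC2-like cluster, 28 of 176 cells labelled KO carried both (21.8 if independent), as did 36 of 233 WT cells (23.8 if independent). Of the cDC2-like cells with Epcam, 63.6% labelled KO and 72.0% in WT also carried Cdh1. Depth is shared by the genes of a cell, and the cells with both had medians of 14348.5 UMIs labelled KO and 11491 in WT, above those of their cluster, and the part of depth in the count was not tested. A further 4 cells labelled KO and 8 of WT formed an unnamed cluster led by Il4, Hdc and Mcpt8, a basophil protease. There Cdh1 had 4 UMIs labelled KO and 8 UMIs in WT, and it was found in 3 of 4 cells labelled KO and 6 of 8 WT cells at median depths of 3402.5 UMIs labelled KO and 2039 in WT. Its level, 224 CPM labelled KO (interval 61.1 to 575) and 321 CPM in WT (138 to 632), was above that of the cDC2-like cells but rests on 12 cells.

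**Figure D2:**
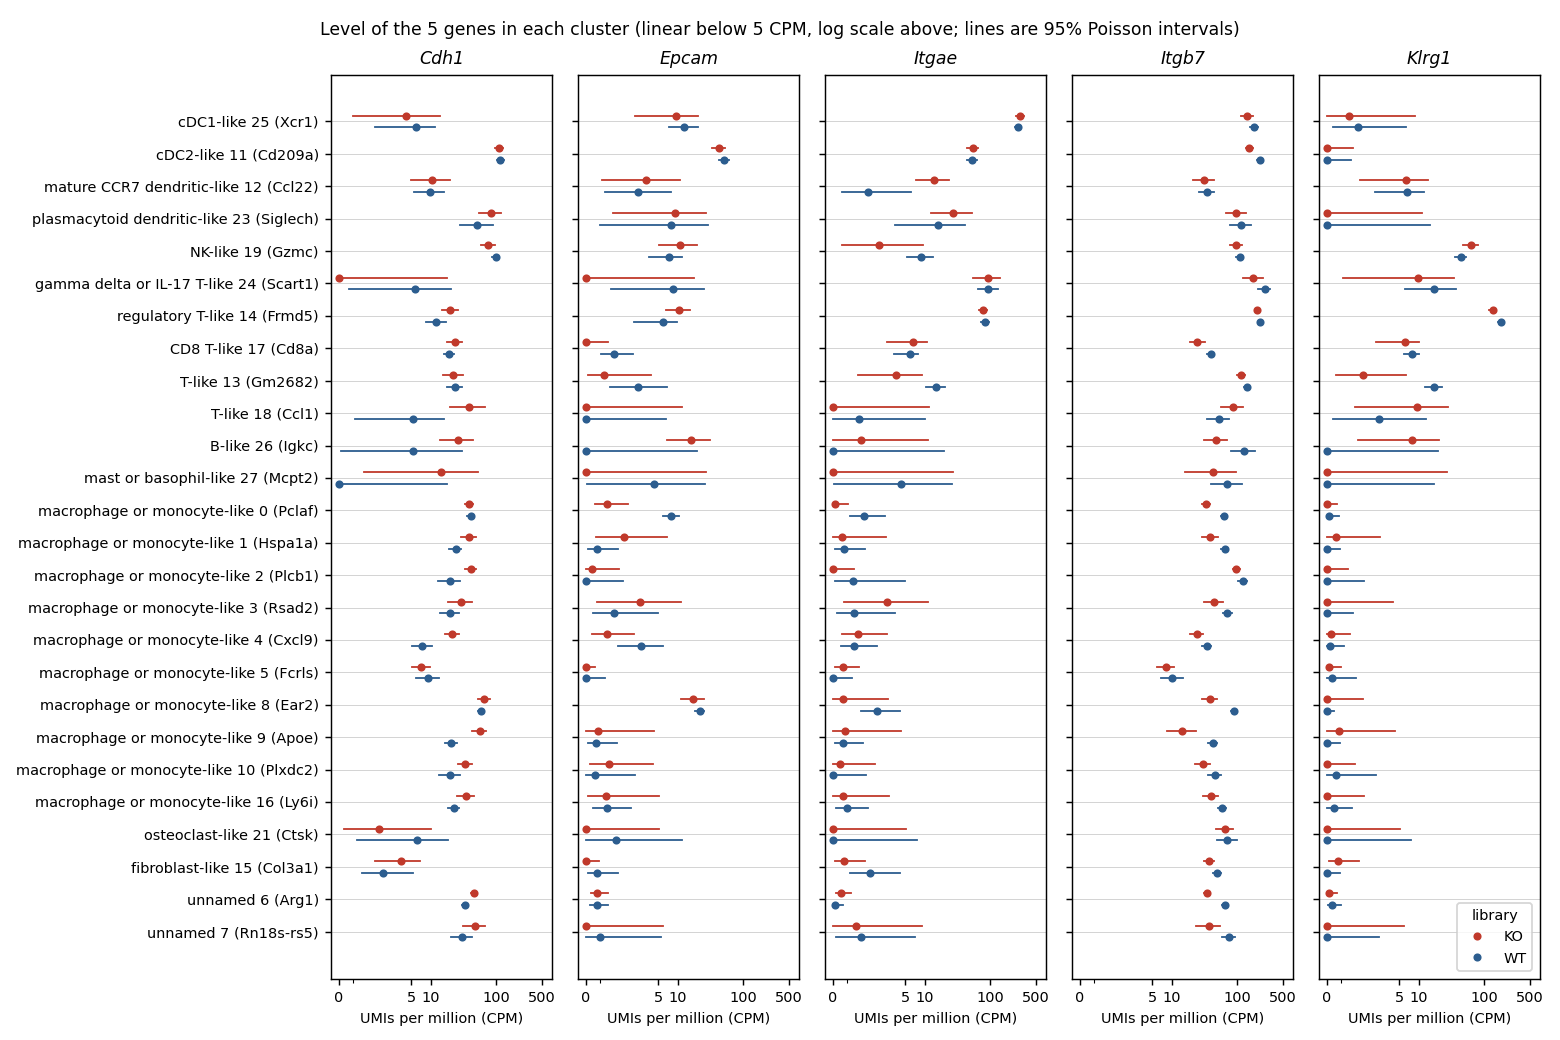
Level of each of the 5 genes in UMIs per 1000000 (CPM; linear below 5, log scale above) in the 26 clusters with at least 20 cells in each library, KO above WT in each row, with 95% Poisson intervals as lines; each cluster is followed by its number and leading gene. Cdh1 and Epcam peak in the cDC2-like row, Itgae in the cDC1-like row and Klrg1 in the regulatory T-like row, in both libraries.

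Itgae, the alphaE chain, was highest in the dendritic subset with little Cdh1. In cDC1-like cells it stood at 286 CPM labelled KO (interval 246 to 331) and 262 CPM in WT (236 to 291), found in 88.1% and 84.9% of cells. The cDC2-like cells had 53.4 CPM labelled KO and 52.7 CPM in WT, in 25.6% and 24.0% of cells, and the 2 libraries differed by less than counting error in both subsets. In the macrophage or monocyte-like clusters, which should lack it, Itgae was found in 0.643% of cells labelled KO and 1.05% of WT cells at median depths of 9340 UMIs labelled KO and 8906.5 in WT. In the mature dendritic-like cells it had 13 UMIs labelled KO and 4 UMIs in WT, a ratio of 5.61 with an interval of 1.73 to 23.6.

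Itgb7, the beta7 chain, was the most widely found of the 5 genes, in 28.9% of cells labelled KO and 36.4% of WT cells. Its highest clusters were the same kinds of cells that held Itgae. With both libraries summed, the gamma delta or IL-17 T-like cells (led by Scart1, Il17a and Trdc) stood at 229.5 CPM, the regulatory T-like cells at 213, the cDC2-like at 188 and the cDC1-like at 168 CPM, each within counting error of its neighbour. The Fcrls cluster was lowest, at 8.03 CPM labelled KO and 10.2 CPM in WT. Fibroblast-like cells, which should lack this gene, carried it in 44.8% of cells labelled KO and 39.7% in WT, at 36.8 CPM labelled KO and 49.5 CPM in WT, above the Fcrls macrophages. Their median depth was 20715 UMIs labelled KO and 15024 in WT, and levels of Itgb7 near theirs are not read as expression here. Over 52 points (26 clusters in each of 2 libraries, which share library, depth and free RNA) the log2 level of Itgb7 had a Pearson r of 0.68 with that of Itgae, the third highest among 11295 genes, after Gfod1 (0.71) and Elovl5 (0.69).

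For the receptors on lymphocytes, single cells were gated by their own marker UMIs and by a low count of macrophage transcripts. The sum of 12 macrophage markers was between 739 and 1267 CPM in these gates, against 1750 to 10725 CPM in the T-like, NK-like and B-like clusters and 17356 CPM labelled KO and 17661 CPM in WT in the macrophage or monocyte-like clusters, and its part in the gate values was not tested. Regulatory T cells (Foxp3 with CD3 genes) had the highest Itgae of the gates, at 126 CPM in 82 cells labelled KO and 111 CPM in 119 WT cells. Of the 53 Itgae UMIs labelled KO, 19 came from 7 both-type cells. Itgb7 in these cells was 332 CPM labelled KO and 334 CPM in WT, and Klrg1 was 275 CPM labelled KO and 298 CPM in WT. All 3 receptor genes differed between the libraries by less than counting error there. Gated conventional CD4 T cells had Itgae at 51.8 CPM labelled KO and 45.8 CPM in WT, and Itgb7 at 254 CPM labelled KO and 232 CPM in WT.

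CD8 T cells, the cells in which RUNX3 is known to act on Itgae, held little of it in either library. In the CD8 T gate Itgae had 8 UMIs in 160 cells labelled KO and 49 UMIs in 650 WT cells, which is 7.38 CPM labelled KO (interval 3.19 to 14.5) and 13.6 CPM in WT (10.1 to 18.0). The share of cells with a UMI was 3.12% labelled KO (interval 1.02 to 7.14) and 2.92% in WT (1.77 to 4.53), and the ratio of levels, 0.542, had an interval of 0.222 to 1.15. A difference was therefore not detectable at this depth. The CD8 T-like cluster gave 6.54 CPM labelled KO and 5.84 CPM in WT, the other direction. Itgb7 in the CD8 T gate was 39.7 CPM labelled KO and 35.8 CPM in WT, also within counting error. These levels are near those of the fibroblast-like cells given above and are not read as expression.

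Gamma delta T cells carried the receptor pair but were few. In the gate, Itgae was 52.1 CPM in 19 cells labelled KO and 73.4 CPM in 69 WT cells, and Itgb7 was 219 CPM labelled KO and 243 CPM in WT. Gated NK cells had no Itgae UMI in 80 cells labelled KO and 10 UMIs in 241 WT cells, so the gene stood at 0 CPM labelled KO, which allows up to 3.61 CPM (3 counts of the gate's total), and at 6.19 CPM in WT. The exact interval of the ratio reached up to 0.868. Itgb7 in the NK gate was 66.2 CPM labelled KO and 114 CPM in WT, a ratio of 0.581 with an interval of 0.422 to 0.790. After thinning, 10% of gated NK cells labelled KO and 8.37% of those in WT kept an Itgb7 UMI. Some gated NK cells labelled KO lay in the fibroblast-like cluster, and their part in the Itgae and Itgb7 gaps was not tested. In the NK-like cluster Itgae had 3 UMIs in 104 cells labelled KO and 21 UMIs in 337 WT cells.

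**Figure D3:**
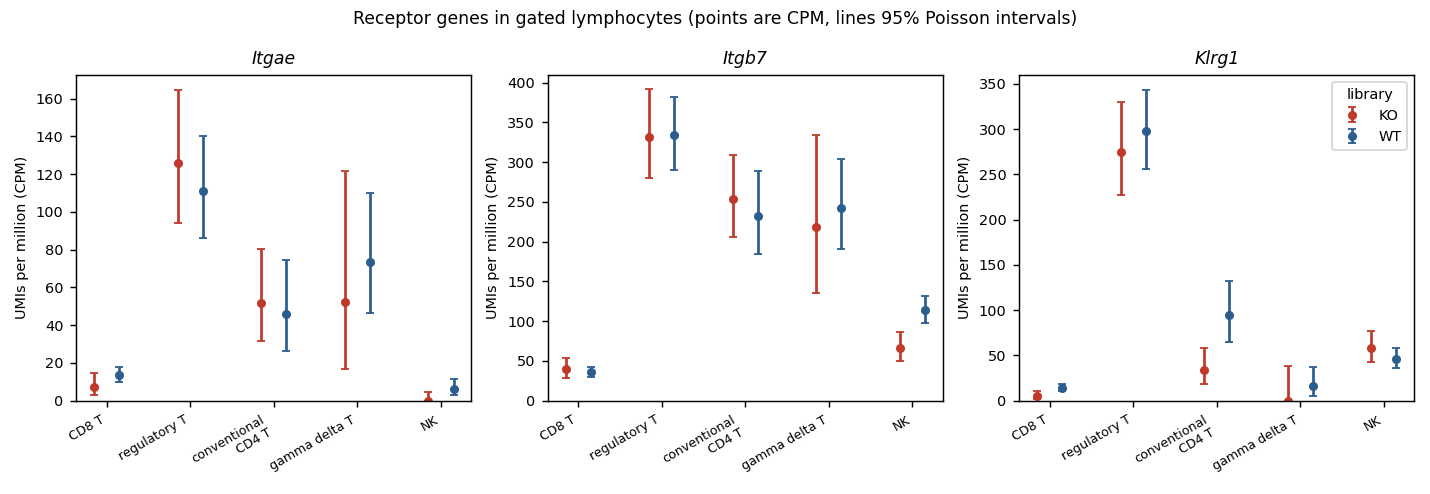
Level of the receptor genes Itgae, Itgb7 and Klrg1 in UMIs per 1000000 (CPM) in 5 lymphocyte gates, KO left and WT right in each pair, with 95% Poisson intervals. Regulatory T cells are highest for all 3 genes and CD8 T cells low for all 3, while Klrg1 in conventional CD4 T cells stands at 33.7 CPM labelled KO and 94.5 CPM in WT.

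Klrg1 was the most lymphocyte-restricted of the 5 genes, with 95.2% of its UMIs labelled KO and 96.7% in WT in T-like, NK-like and B-like clusters. Regulatory T-like cells held most of it, at 134 CPM labelled KO and 178 CPM in WT, found in 47.1% and 51.3% of cells. The NK-like cells had 61.7 CPM labelled KO and 43.7 CPM in WT, in 17.3% and 13.9% of cells. In cDC2-like cells and the Ear2 cluster Klrg1 had 0 UMIs in both libraries. Macrophage or monocyte-like clusters, which should lack it, carried a UMI in 0.151% of cells labelled KO and 0.147% of WT cells. Among genes, the pattern of Klrg1 was most like those of Frmd5 (r of 0.84), Bspry (0.83) and Foxp3 (0.83), the factor that defines regulatory T cells.

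Klrg1 was lower in the library labelled KO in the gates of CD8 and conventional CD4 T cells, but not in every view of these cells. In the CD8 T gate it had 5 UMIs labelled KO and 50 in WT, or 4.61 CPM labelled KO and 13.9 CPM in WT, a ratio of 0.332 with an interval of 0.103 to 0.828. In the CD8 T-like cluster it was 6.13 CPM labelled KO and 7.79 CPM in WT, a ratio of 0.788 whose interval of 0.414 to 1.41 includes 1. In conventional CD4 T cells it was 33.7 CPM labelled KO and 94.5 CPM in WT, a ratio of 0.356 (0.172 to 0.696), and all 33 WT UMIs came from 11 of 73 cells, which lay in the regulatory T-like cluster, as did 9 of the 13 UMIs labelled KO. Outside that cluster the gate held 4 UMIs labelled KO and 0 in WT, so its ratio rests on cells that clustered with regulatory T cells. The regulatory T-like cluster itself had a ratio of 0.752 (0.651 to 0.867). In NK cells it was 57.8 CPM labelled KO and 46.4 CPM in WT, a ratio of 1.24 whose interval of 0.848 to 1.81 includes 1. In the NK-like cluster the ratio was 1.41 (1.01 to 1.96). A T-like cluster led by Gm2682 and Lef1 (cluster 13) had 4 Klrg1 UMIs labelled KO and 42 in WT, and 7 Itgae UMIs labelled KO and 37 in WT. These are ratios of 0.147 (0.0383 to 0.405) for Klrg1 and 0.292 (0.110 to 0.664) for Itgae. The difference between the ratios was not tested.

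Klrg1 and its ligand gene were found in the same NK cells. Of 80 gated NK cells labelled KO, 23 carried Cdh1, 15 Klrg1 and 8 both (4.31 if independent). Of 241 in WT, 65 carried Cdh1, 36 Klrg1 and 13 both (9.71 if independent). The cells with both were deep, with medians of 15332 UMIs labelled KO and 13319 in WT, against 7178.5 labelled KO and 5657 in WT in the whole gates. In the regulatory T gate, Itgae and Klrg1 were found together in 11 of 82 cells labelled KO (9.88 if independent) and 24 of 119 WT cells (17.1 if independent). Those cells had medians of 5141 UMIs labelled KO and 3865 in WT, against 4010 labelled KO and 4026 in WT in the whole gate.

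Over all cells, with 5 CPM added to each level, no member was past 1.5 times in either direction. Of 16356 genes, 1.00% were higher past that size and 0.709% lower. Cdh1 stood at 33.9 CPM labelled KO and 29.7 CPM in WT (log2 ratio 0.16), Epcam at 3.62 CPM labelled KO and 5.92 CPM in WT (-0.34), and Itgae at 10.4 CPM labelled KO and 11.999 CPM in WT (-0.14). Klrg1 stood at 7.77 CPM labelled KO and 9.48 CPM in WT (-0.18). By this log2 ratio Itgb7 was furthest apart, at 51.4 CPM labelled KO and 75.6 CPM in WT (-0.52). These log2 ratios, KO over WT, are taken after adding 5 CPM to each level. Epcam lay near the 5 CPM added, which shrinks its ratio, and its levels without it were further apart in proportion than those of Itgb7. Sums over all cells move with the makeup of a library as well as with the level per cell, so clusters were then taken one by one.

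Itgb7 was lower in the library labelled KO in 25 of 26 clusters, and the interval of its ratio lay below 1 in 18 of them and above 1 in none. Of all genes, 0.428% were lower in at least 25 of these clusters, and 1.87% of the 2189 genes with at least 20 UMIs in each. The exception was a small T-like cluster led by Ccl1 (84.9 CPM labelled KO and 52.0 CPM in WT, interval of the ratio 0.930 to 2.86). The largest gaps among the 10 macrophage or monocyte-like clusters were in cluster 9, led by Apoe, at 14.4 CPM labelled KO and 41.9 CPM in WT, and in the Ear2 cluster, at 37.7 CPM labelled KO and 87.5 CPM in WT. Cells of cluster 9 were shallower in the library labelled KO (median 2820.5 UMIs, against 8236 in WT), and the part of depth in this gap was not tested. In cDC2-like cells Itgb7 was 153 CPM labelled KO and 219 CPM in WT, a ratio of 0.696 (0.601 to 0.805). Fibroblast-like cells, given above as background, moved the same way, with a ratio of 0.744 (0.596 to 0.927). Cluster 9, the Fcrls cluster, a cluster led by Cxcl9 (cluster 4) and a cluster led by Plxdc2 (cluster 10) lay below the fibroblast-like level in both libraries, so their gaps are not read as differences in expression. With both libraries summed, the CD8 T-like (35.3 CPM) and mature CCR7 dendritic-like (33.3 CPM) clusters also lay below the fibroblast-like 43.1 CPM. Their gaps are not read as differences either. The summed intervals of clusters 0 and 6, a cluster led by Ly6i (cluster 16) and the mast or basophil-like cells overlapped the fibroblast-like one. The gaps of these clusters are treated the same way. In the Ear2 cluster the level labelled KO, 37.7 CPM, was below the summed fibroblast-like 43.1 CPM as well. Among the gates, Itgb7 was lower in NK cells (ratio 0.581, interval 0.422 to 0.790). Some of the gated NK cells labelled KO lay in the fibroblast-like cluster, and their part in this gap was not tested. In the NK-like cluster Itgb7 was lower, but not past 1.5 times. Among the other gates, Itgb7 did not differ beyond counting error in regulatory, CD8, conventional CD4 or gamma delta T cells (ratios of 0.995, 1.11, 1.09 and 0.901).

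Summed over the 11 macrophage or monocyte-like clusters, Itgb7 was 33.3 CPM labelled KO and 59.4 CPM in WT, a log2 ratio of -0.75, beside 36.8 CPM labelled KO and 49.5 CPM in WT in fibroblast-like cells. Epcam was 1.92 CPM labelled KO and 6.205 CPM in WT, a log2 ratio of -0.70. These 2 of 5 members were lower past 1.5 times, where 0.875% of 13264 genes were, and no member was higher past that size (1.42% of genes were). For Epcam the Ear2 cluster held 153 of its 240 UMIs in WT and did not differ beyond counting error within itself (17.1 CPM labelled KO and 21.4 CPM in WT, interval of the ratio 0.503 to 1.23), and it had 124 cells labelled KO and 708 in WT. The cycling cluster 0 had 1.49 CPM labelled KO and 7.79 CPM in WT, a ratio of 0.191 (0.0783 to 0.406).

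In single classes, members with at least 50 UMIs were counted against the share of all genes past 1.5 times. None was past it in the dendritic-like clusters together (1.51% of genes higher, 2.64% lower), the cDC2-like (1.87% higher, 3.22% lower), cDC1-like (4.32% higher, 5.55% lower), regulatory T-like (2.17% higher, 2.77% lower), CD8 T-like (1.71% higher, 1.65% lower) or NK-like cluster (2.04% higher, 4.66% lower). None was past it in the regulatory T gate either (5.13% higher, 10.6% lower). In the CD8 T gate Itgae (-0.59) and Klrg1 (-0.97) were lower past it, 2 of 4 measured members, where 4.27% of genes were lower and 2.18% higher. The Itgae value lay close to that limit, and the interval of its ratio, given above, included 1. After thinning, the Itgae log2 ratio reversed to 1.31, so its place in this count is not read as a difference. In the NK gate Cdh1 (-0.82) and Itgb7 (-0.74) were lower past it, 2 of 3 measured members, where 6.23% of 6352 genes were lower and 7.90% higher. Some cells labelled KO in the NK gate lay in the fibroblast-like cluster, and their part in these values was not tested.

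Cdh1 in macrophages went the other way. It was higher in the library labelled KO in 8 of 10 macrophage or monocyte-like clusters, with an interval above 1 in 6 of them, and past 1.5 times on the log2 scale in 4, a count that 1.04% of 13264 genes reached. In the Cxcl9 cluster it was 21.0 CPM labelled KO and 7.37 CPM in WT, a ratio of 2.85 (1.88 to 4.39), and in the cluster led by Plcb1 and Plac8 it was 40.6 CPM labelled KO and 19.4 CPM in WT, a ratio of 2.09 (1.36 to 3.30). In 3 clusters with much Cdh1 the libraries differed by less than counting error. Those were the cDC2-like cells, with a ratio of 0.959 (0.797 to 1.15), the Ear2 cluster, with 1.10 (0.869 to 1.38), and the cycling cluster 0, with 0.960 (0.796 to 1.16). Summed over the macrophage or monocyte-like clusters Cdh1 was 32.5 CPM labelled KO and 28.8 CPM in WT.

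**Figure D4:**
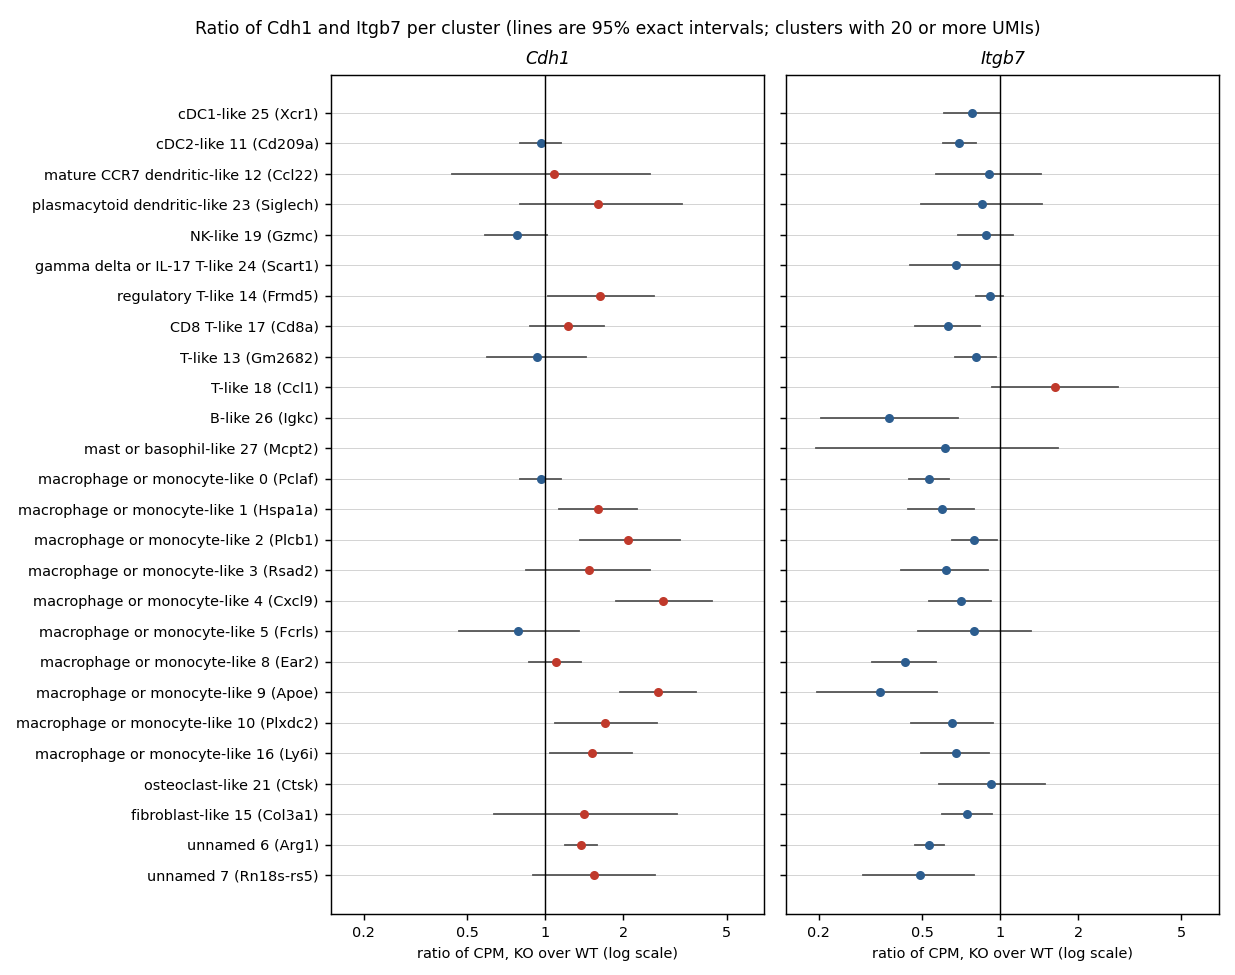
Ratio of the CPM of Cdh1 (left) and Itgb7 (right), KO over WT, on a log scale, in each cluster with at least 20 UMIs of the gene; lines are 95% exact intervals, red points lie above 1 and blue points below 1. Itgb7 points lie below 1 in 25 of 26 clusters, while 8 of 10 macrophage or monocyte-like clusters have Cdh1 points above 1. Clusters with Itgb7 near or below the fibroblast-like level are not read as differing in expression.

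Because the library labelled KO holds cells of both types, the members were also given for female-type and male-type cells apart. In macrophage or monocyte-like clusters Itgb7 was 28.6 CPM in female-type and 38.8 CPM in male-type cells labelled KO, against 57.9 CPM in male-type cells of WT, so both kinds lay below WT. Both values labelled KO were also below the 43.1 CPM of fibroblast-like cells, both libraries summed, and are not read as expression. Cdh1 in the same clusters was 28.9 CPM in female-type and 39.4 CPM in male-type cells labelled KO, against 28.8 CPM in male-type cells of WT. The female-type cells labelled KO were at the WT level and the male-type cells above it. In gated NK cells Cdh1 was 60.2 CPM in 45 female-type cells and 114 CPM in 19 male-type cells labelled KO, against 109.7 CPM in 201 male-type cells of WT. Over the whole NK gate it had been 55.4 CPM labelled KO and 101.5 CPM in WT, a ratio of 0.545 (0.384 to 0.761). Of the 80 gated NK cells labelled KO, 8 lay in the fibroblast-like cluster, and those in the NK-like cluster had 73.5 CPM labelled KO and 110.4 CPM in WT.

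**Figure D5:**
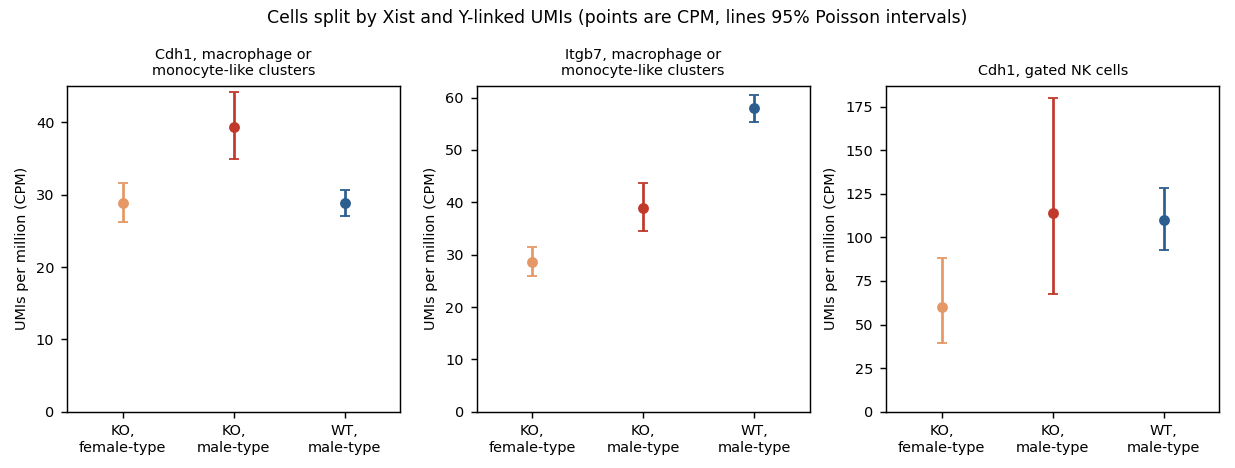
Level in UMIs per 1000000 (CPM) of Cdh1 and Itgb7 in macrophage or monocyte-like clusters and of Cdh1 in gated NK cells, for female-type and male-type cells of the library labelled KO and male-type cells of WT, with 95% Poisson intervals. Itgb7 lies below WT in both kinds of cells labelled KO, where it is also below the fibroblast-like background level. Cdh1 in NK cells stands at 60.2 CPM in the female-type and 114 CPM in the male-type cells labelled KO.

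Genes that work with the 5 members were read from lists, chosen with earlier results known. Of the 6 genes of the cadherin-catenin complex none was past 1.5 times over all cells (median log2 ratio 0.00, against -0.01 over all genes). Ctnnd1 (p120 catenin, 0.32) and Ctnnb1 (beta-catenin, 0.13) had the highest ratios, and Afdn (-0.50) and Vcl (-0.13) the lowest. None of 6 other cadherins measured was past that size, from Cdh11 (0.22) and Cdh13 (0.18) to Cdh5 (0.01) and Celsr1 (-0.18). In the NK gate 1 of them was measured and it was higher (log2 ratio 2.28), where 7.90% of 6352 genes were. Of the gate's 80 cells labelled KO, 8 lay in the fibroblast-like cluster, and their part was not tested. Of 7 partners and relatives of EpCAM none was, from Spint1 (0.38) and Cd9 (0.24) to St14 (-0.26). None of 6 repressors of Cdh1 was, with Snai1 and Twist1 highest (both 0.19) and Twist2 (0.04) and Zeb1 (-0.18) lowest.

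Among 9 other leukocyte integrin chains none was past 1.5 times (median -0.17), with Itgam (0.57) and Itgb1 (0.20) highest and Itga4 (-0.23) and Itgax (-0.31) lowest. Itga4, the other partner of beta7, had its highest level in the mature CCR7 dendritic-like cells at 1428 CPM, whereas Itgb7 itself was low there. Of 7 ligands and homing genes 1 was higher, Fn1 (0.66), where 1.00% of all genes were. Ccr9 (0.51) followed, and Ccl25 (-0.09) was lowest. On the route from TGF beta to Itgae none of 11 genes was past 1.5 times, with Itgb8 (0.29) and Tgfbr1 (0.28) highest and Smad4 (-0.21) and Runx3 itself (-0.40) lowest. Of 7 genes of tissue residency 2 were lower, Cxcr6 (-0.79) and Xcl1 (-0.77), and Klf2 (0.58) and Prdm1 (0.27) were highest, where 0.709% of all genes were lower. The highest level of Xcl1 was in the NK-like cells and that of Cxcr6 in the gamma delta or IL-17 T-like cells. NK-like cells made up 1.99% of the library labelled KO and 4.03% of WT. Gamma delta or IL-17 T-like cells made up 0.630% of the library labelled KO and 0.849% of WT. The part of these shares in the 2 ratios was not tested. Within classes the counts differed. Of 6 measured residency genes 1 was higher and none lower in the CD8 T-like cluster and in the CD8 T gate, and none was higher and 1 lower in the NK-like cluster. Of all genes, 1.71% were higher and 1.65% lower in the CD8 T-like cluster. The shares were 2.18% higher and 4.27% lower in the CD8 T gate, and 2.04% higher and 4.66% lower in the NK-like cluster. Of 7 genes of effector lymphocytes 1 was lower, Tbx21 (-0.84), the T-bet factor, beside the same 0.709% of all genes. Eomes (-0.37) followed, and Cx3cr1 (0.54) and Prdm1 were highest. In the NK-like cluster 2 of 7 measured effector genes were lower, where 4.66% of all genes were. In the CD8 T gate none of 7 was past 1.5 times.

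By pattern over the same 52 points, given as a description, Cdh1 was most like Fcor (r of 0.73), Fgr (0.70), Itgax (0.67), Bcl2l11 (0.66) and Sulf2 (0.65). Epcam was most like Bex6 (0.79), H2-DMb2 (0.74), Plet1 (0.71), Vrk1 (0.69) and Ccl17 (0.68). The list for Itgae was Zdhhc23 (0.78), F2rl2 (0.77), Lrba (0.74), Plet1os (0.73) and Arid4a (0.72), and those for Itgb7 and Klrg1 ended with Arid4b (0.67) and Itpr1 (0.66) and with Tigit (0.81) and Neb (0.81). Cdh1 and Itgae had an r of -0.12, and Epcam had 0.48 with Cdh1 and 0.51 with Itgae. The Runx3 level had 0.42 with Cdh1 and between 0.24 and 0.28 with the other 4.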

How the data were processed

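The authors deposited unnormalized UMI counts, 1 matrix for each library, from Cell Ranger 8.0.1 per the file headers. The submitters' processing notes name mm10 and Seurat 3. Capture was on a microwell chip per the labels' protocols, and the chemistry could not be settled from the files. The 5 members and all lists were chosen with earlier results of these data known. Barcodes with at least 500 UMIs, 200 genes and at most 25% mitochondrial UMIs were kept. The automatic Scrublet threshold marked 0.0181% of barcodes in the library labelled KO and 0% in WT, so the highest 5% of scores were left out (276 labelled KO and 440 WT). Cells were clustered without the members in scanpy 1.11.5 (2000 variable genes, 30 components, 15 neighbours, Leiden resolution 1, seed 0), with leidenalg 0.10.2, numpy 2.4.6, scipy 1.17.1 and pandas 2.3.3 on Python 3.11.15. Clusters were named from marker lists.

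Summed counts of each class and library are given per 1000000 UMIs (CPM). Levels have exact Poisson and shares exact Clopper-Pearson intervals at 95%, and a count of 0 allows up to 3 counts. Log2 ratios have 5 CPM added, and genes with at least 50 UMIs were called past 1.5 times. Shares were also taken after thinning to 1000 UMIs a cell. Named genes are the members, the 2 highest and 2 lowest of each list and the 5 most similar genes per member (log2 of CPM plus 10, genes with at least 200 UMIs). Some genes that this rule names are not reported here. The scripts were tested on simulated data. With 1 library per group, no replicate error exists and differences between cells, animals and libraries cannot be told apart.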

Additional observations from a re-analysis of the deposited data

Results flagged for a closer look

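The Cdh1 ratio, KO over WT, pointed in opposite directions in different cell classes. It was 1.13 in macrophage or monocyte-like clusters and 1.22 in the 3 dendritic-like clusters, against 0.545 in gated NK cells and 0.148 in gated gamma delta T cells. Within the dendritic-like clusters no single one had that ratio: it was 0.959 in cDC2-like, 0.793 in cDC1-like and 1.08 in mature cells, each with an interval that includes 1. The cDC2-like cells, which hold most Cdh1 there, were 3.36% of the library labelled KO and 2.79% of WT. The difference between the class ratios was not tested, since each group is 1 library. In the gamma delta T gate Cdh1 had 1 UMI in 19 cells labelled KO and 22 UMIs in 69 WT cells, and the interval of the ratio was 0.00359 to 0.917. Of the 22 WT UMIs, 20 lay in gate cells that fell in the NK-like cluster.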

How the results depend on the processing

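Values are log2 ratios, KO over WT. Of 146 alternative values, 119 lay within the main value's interval (for counts of genes, within 1.5 times) and 26 outside it, and 1 turned the sign of a value past 1.5 times. Smaller main values also changed sign, among them Itgae over all cells and in the regulatory T gate and Cdh1 in dendritic-like clusters, as given here. Over all cells, Cdh1 (0.16) became 0.46 after thinning and 0.41 in male-type cells. It was 0.052 with female-type cells labelled KO set against male-type cells of WT, and 0.36 as a mean over clusters. Epcam (-0.34) became -0.58 with 1 CPM added, -0.13 with 20 CPM added, -0.59 after thinning and -0.084 as a mean over clusters. Itgae (-0.14) became -0.34 in male-type cells and 0.034 as a mean over clusters. Itgb7 (-0.52) became -0.42 with 20 CPM added, -0.35 after thinning, -0.62 with female-type cells labelled KO and -0.44 as a mean over clusters. Klrg1 (-0.18) became -0.50 after thinning and -0.32 in male-type cells. In dendritic-like clusters Cdh1 (0.26) became 0.94 after thinning and -0.055 in male-type cells. In macrophage or monocyte-like clusters Cdh1 (0.15) became 0.53 after thinning, 0.39 in male-type cells and 0.00015 with female-type cells labelled KO. Itgb7 there (-0.75) became -0.58 with 20 CPM added, -0.52 in male-type cells and -0.91 with female-type cells labelled KO. Itgae in the CD8 T gate (-0.59) reversed to 1.31 after thinning, from 3 UMIs labelled KO and 3 in WT. Itgae in the regulatory T gate (0.18) became -0.35 after thinning and -0.57 with female-type cells labelled KO. The causes were not tested. The mean over clusters, the female-type setting and all alternatives for the macrophage values were chosen after seeing the data. No paired analysis was possible because each group is 1 library.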
